A study of Mus musculus with 6 samples.

Results

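The chemokine receptor genes Ccr1, Ccr2, Ccr3, Ccr7, Ccrl2, Cx3cr1, Cxcr2 and Cxcr4 were examined in the RNA-seq of bone marrow mesenchymal stem cells (BMMSCs), the adherent cells grown out of mouse bone marrow. They were picked by gene symbol from the deposited expression table, where all 8 were found among 36870 distinct symbols. The study examined what Tet1 and Tet2, enzymes that oxidize methylated cytosine in DNA, do in these cells, and compared 3 libraries from cells given a non-targeting control siRNA with 3 libraries from cells given siRNAs against both Tet1 and Tet2 (siTet1/Tet2). Both groups came from the C57BL/6 strain. The sample labels give the cells as passage 2, whereas the study's methods use an earlier passage, and the methods of the sequencing call the control cells vehicle-treated. The labels do not say whether the 3 samples of a group came from separate cultures or animals, so p-values measure only the spread between these samples, which may be technical.

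Chemokine receptors are G protein-coupled receptors that sit in the cell membrane and steer migrating cells along gradients of secreted chemokines. Most are known from leukocytes, where each cell type carries its own set, and in bone marrow CXCR4 and its ligand CXCL12, made by stromal cells, hold hematopoietic cells in place. Some family members are atypical and bind a ligand without signalling through a G protein.

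Values are RPKM, read numbers divided by gene length and by sequencing depth. Read totals are not in the table. The depth estimated from the steps between low values was 32400000 to 38700000 reads a library. The targeted genes were checked first. Tet2 was at 2.57, 4.08 and 3.71 RPKM with control siRNA and at 0.358, 0.238 and 0.202 RPKM with siTet1/Tet2. Tet1 was at 0.032, 0.098 and 0.05 RPKM with control siRNA, and at 0.001, 0.01 and 0.001 RPKM with siTet1/Tet2, where 0.001 is the lowest listed value. Both were lower in every siRNA library than in any control library. Tet1 was under the minimum for testing, an average of 0.1 RPKM across libraries, and was not tested. Its values rested on at most 47 estimated reads a library. Tet3, which was not targeted, had overlapping groups, at 7.03 ± 1.55 RPKM (SD, n = 3) with control siRNA and 7.66 ± 0.767 RPKM (SD, n = 3) with siTet1/Tet2.

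Of the 8 receptors, 6 reached the minimum for testing, an average of 0.1 RPKM across libraries, and 5 of these had an adjusted p under 0.05 (limma on log2 of RPKM plus 1, with Benjamini-Hochberg adjustment over the 13266 genes tested). Among all genes tested 44.5% passed, so passing was common in this comparison, and the counts of receptors stand beside these shares as a description. Cxcr4, Ccrl2 and Cx3cr1 were higher with siTet1/Tet2, against 14.7% of all genes tested, and Ccr3 and Ccr2 were lower, against 29.8%. The balance of these shares depended on the scaling. Of all genes that passed, 66.9% were lower here, 42.1% after quantile normalization and 86.8% when scaled to the macrophage list. The groups did not overlap for any of the 6 receptors tested, as for 55.7% of all genes tested. By the thresholds of the study, a raw p below 0.05 with more than a 2-fold change, here of RPKM plus 1, 1 receptor, Cxcr4, was altered and higher, against 0.950% of all genes tested. On the same scale 0 receptors were altered and lower, against 5.63%, although both Ccr3 and Ccr2 passed the adjusted p from limma. The number altered depended on that scale and was 3, with Ccr3 and Cx3cr1 added, at pseudocounts of 0.1 and 0.01 and with the ratio of the group means as the fold. The directions of these 5 receptors were the same under each scaling of the libraries that was tried, while the call of Ccr2 was lost after quantile normalization.

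Cxcr4, the receptor of CXCL12, stood at 13.4, 13.3 and 10.9 RPKM with control siRNA and at 52.2, 50.4 and 39.8 RPKM with siTet1/Tet2. The siRNA libraries were all far above the control libraries, and replicate 3 was the lowest of each group. The ratio of the group means was 3.79, and the log2 fold change was 1.84 (standard error, SE, 0.12, limma adjusted p = 1.50e-05). It was higher in 3 of 3 siRNA libraries, and the log2 fold change was between 1.63 and 1.95 over the scalings. The estimated reads behind Cxcr4 were 640 to 3610 a library.

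Ccrl2 encodes an atypical receptor that binds chemerin and presents it to neighbouring cells. It was at 2.84, 2.28 and 2.08 RPKM with control siRNA and at 4.86, 4.60 and 3.71 RPKM with siTet1/Tet2. The lowest siRNA library was above the highest control library, and the log2 fold change was 0.66 (SE 0.12, limma adjusted p = 0.00270). Cx3cr1, the receptor of the membrane-bound chemokine fractalkine and a gene known from monocytes and tissue macrophages, was at 0.546, 0.432 and 0.484 RPKM with control siRNA and at 1.04, 0.956 and 1.68 RPKM with siTet1/Tet2. The groups were apart, and the siRNA libraries, with replicate 3 the highest, were more widely spread than the control libraries. The log2 fold change of Cx3cr1 was 0.57 (SE 0.12, limma adjusted p = 0.00577), a value that the pseudocount of 1 holds down at so low a level, since the ratio of the group means was 2.51. Without the minimum on expression the adjusted p of Cx3cr1 was 0.0947 from limma, within a range of 0.000421 to 0.0947 over its alternatives. An antisense gene, Gm33858, shares 78 of the 4505 exon bases of Cx3cr1.

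Ccr3, the receptor of the eotaxins, which is best known from eosinophils and basophils, had 4.31, 4.79 and 4.52 RPKM with control siRNA and 1.93, 2.22 and 2.44 RPKM with siTet1/Tet2. All siRNA libraries were below all control libraries, with little spread in either group. The control mean was 2.07 times the siRNA mean, and the log2 fold change was -0.79 (SE 0.09, limma adjusted p = 0.000266). This is short of a fold change of 2 on the scale of RPKM plus 1 and past it as a ratio of the group means.

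Ccr2, the receptor of the monocyte attractant CCL2, had 0.541, 0.602 and 0.525 RPKM with control siRNA and 0.332, 0.287 and 0.304 RPKM with siTet1/Tet2. The groups were apart and the log2 fold change was -0.25 (SE 0.06, limma adjusted p = 0.0111). After quantile normalization it was -0.08 (limma adjusted p = 0.356), and the adjusted p ranged from 0.00571 to 0.356 over its alternatives. Reads that match several related receptors may be split among them, and the handling of such reads is not given in the sources used here. The number of such reads was not measured, so the level of Ccr2, as of the other receptors, is uncertain to that extent.

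Ccr1, a receptor of CCL3 and CCL5 on monocytes and macrophages, was at 15.9, 17.5 and 14.2 RPKM with control siRNA and at 12.7, 14.0 and 13.2 RPKM with siTet1/Tet2. The siRNA libraries were below the control libraries by a narrow margin, and the difference did not pass, with a log2 fold change of -0.24 (SE 0.09, limma adjusted p = 0.0557). The call changed in 4 alternatives. The adjusted p was 0.0279 with the replicate number as a block in the paired fit, 0.0191 after rescaling all libraries to a common sum, 0.00334 when scaled to the macrophage list and 0.0115 without control replicate 3, within a range of 0.00334 to 0.408 over the alternatives of Ccr1 in limma. Relative to the median of all genes tested, which was itself at -0.09, the log2 fold change of Ccr1 was -0.15.

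Ccr7, which guides dendritic cells and lymphocytes to lymph nodes, was listed at 0.001 RPKM in all 6 libraries. Cxcr2, the neutrophil receptor of CXCL1 and related chemokines, was at 0.001 RPKM in 5 libraries and at 0.08 RPKM, or about 9 estimated reads, in siRNA replicate 3. Neither was tested, and lower levels of either were not detectable at this depth.

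**Figure D1:**
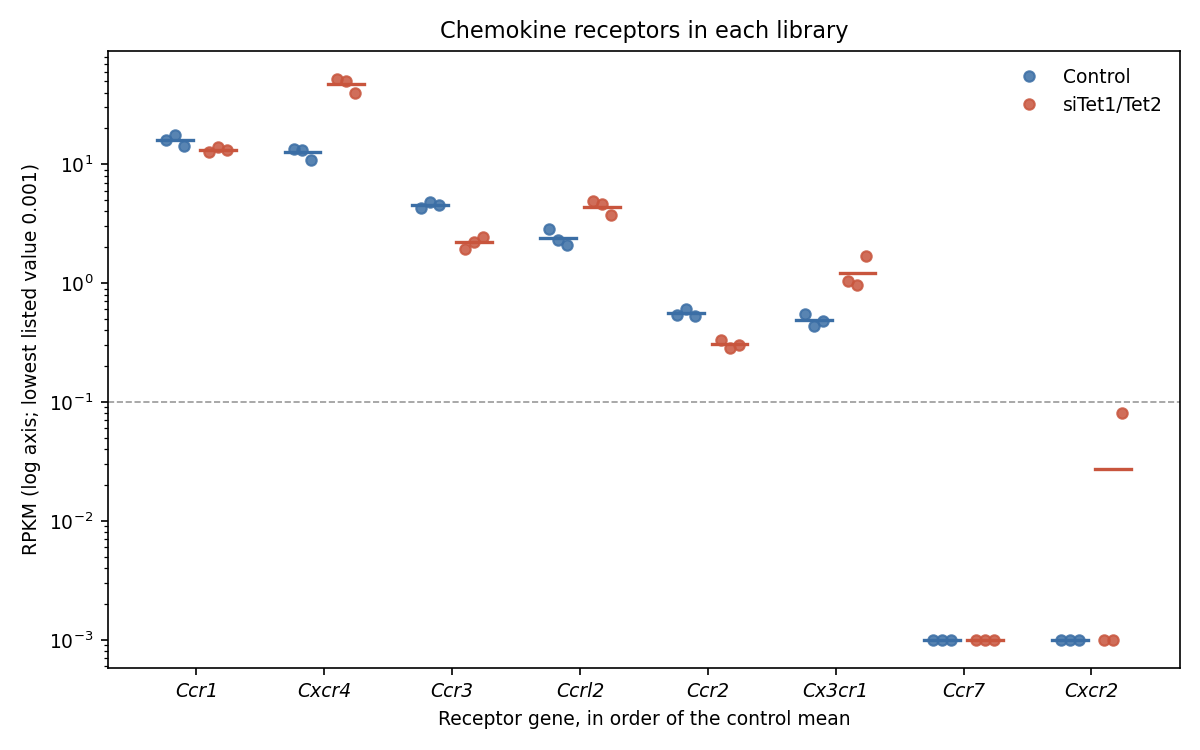
RPKM of each chemokine receptor in each library on a log axis, with points for the 3 control and 3 siTet1/Tet2 libraries, short lines for the group means and a dashed line at the 0.1 RPKM minimum for testing. Cxcr4, Ccrl2 and Cx3cr1 lie higher and Ccr3 and Ccr2 lower with siTet1/Tet2, although the difference of Ccr2 did not pass after quantile normalization, and Ccr7 and Cxcr2 lie at the lowest listed value, except for Cxcr2 in 1 library.

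The order of the receptors by mean RPKM differed between the groups. With control siRNA it was Ccr1, Cxcr4, Ccr3, Ccrl2, Ccr2 and Cx3cr1, and only Ccr2 and Cx3cr1 had overlapping values among these neighbours. With siTet1/Tet2 the order was Cxcr4, Ccr1, Ccrl2, Ccr3, Cx3cr1 and Ccr2, with no overlap between neighbours. Cxcr4 thus passed Ccr1, Ccrl2 passed Ccr3 and Cx3cr1 passed Ccr2. Ratios within a library do not change when a library is multiplied by 1 factor, unlike in quantile normalization. The ratio of Cxcr4 to Ccr1 was 0.843, 0.759 and 0.770 with control siRNA and 4.11, 3.61 and 3.03 with siTet1/Tet2. That of Ccr3 to Ccrl2 was 1.52, 2.10 and 2.17 with control siRNA and 0.398, 0.482 and 0.658 with siTet1/Tet2. Cx3cr1 over Ccr2 was between 0.718 and 1.01 with control siRNA and between 3.12 and 5.53 with siTet1/Tet2. In each of these ratios the groups were apart. The 8 receptors together had 36.4 ± 3.21 RPKM (SD, n = 3) with control siRNA and 68.9 ± 6.71 RPKM (SD, n = 3) with siTet1/Tet2, and Cxcr4 made up 34.4% of the first and 68.7% of the second on average.

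The genes whose pattern was most like that of a receptor were taken by Pearson correlation of log2(RPKM + 1) over the 6 libraries, among 11050 other genes averaging 1 RPKM or more. With libraries in 2 groups, any gene that differs strongly between them correlates highly, so these values only describe the libraries. Nearest to Cxcr4 were Gm4980, Gnpda1 and Rilpl2, each at 0.999, and nearest to Ccr3 were Pspc1, Cacnb3 and Polr1a, each at 0.999. For Ccrl2 they were Arhgap24 at 0.999, Npl at 0.998 and Hadhb at 0.995, and for Ccr1 they were Ndufaf2, Slmo2 and Mus81, each at 0.991. Above 0.9 were 1335 genes for Cxcr4, 2600 for Ccr3, 1068 for Ccrl2 and 350 for Ccr1.

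A list of other chemokine receptors and chemerin receptors held 17 genes in the table, of which 6 were tested. Of these, 3 were lower and 1 was higher with an adjusted p under 0.05 from limma, beside 29.8% and 14.7% of all genes tested, and their median log2 fold change was -0.18 against -0.09 for all genes tested. These calls concerned receptors at low levels or with small changes. The median of the list was -0.04 after quantile normalization, where that of all genes tested was 0.06. After rescaling to a common sum it was -0.32, against -0.16 for all genes tested. Ackr4, a scavenger of chemokines, fell from 0.388 ± 0.0964 to 0.0937 ± 0.0708 RPKM (SD, n = 3 in each group). Ccr1l1, a gene closely related to Ccr1, fell from 0.698 ± 0.201 to 0.328 ± 0.0162 RPKM. For Cxcr6, the receptor of CXCL16, the means were 0.311 and 0.129 RPKM, and for Cmklr1, the signalling receptor of chemerin, 7.48 and 9.10 RPKM. The calls of Cxcr6 and Cmklr1 were fragile. The limma adjusted p of Cxcr6 was 0.0268, within 0.0194 to 0.218 over its alternatives, and 0.0521 to 0.0785 without control replicate 2 or 3 or any 1 siRNA replicate. Ackr4 lost its call without the expression minimum (limma adjusted p = 0.0990, range 0.00394 to 0.0990), and Ccr1l1 lost it there (0.130) and after quantile normalization (0.182, range 0.00515 to 0.182). For Cmklr1 the limma adjusted p was 0.0356, 0.138 after rescaling all libraries to a common sum, 0.693 when scaled to the macrophage list, and 0.0576 to 0.124 without control replicate 1 or 2 or siRNA replicate 2 or 3, within a range of 0.00289 to 0.693. Cxcr3 (5.42 and 4.85 RPKM) and Ccr10 (0.12 and 0.156 RPKM) had overlapping groups and did not pass. The other 11 receptors of the list, among them Xcr1, Ackr3, Cxcr1, Ccr4 and Ccr9, were under the minimum for testing, and Ccr6 and Ackr2 were at the lowest listed value in all libraries.

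Among the ligands of the 8 receptors, 13 of the 18 tested were lower and 1 was higher with an adjusted p under 0.05 from limma, beside 29.8% and 14.7% of all genes tested, and the median log2 fold change was -1.53 against -0.09 for all genes tested. The list held 22 ligands, and its count of lower ligands was 13 to 15 over the scalings. Cxcl12, the ligand of CXCR4, was at 40.9, 31.8 and 44.1 RPKM with control siRNA and at 3.29, 3.79 and 4.91 RPKM with siTet1/Tet2. Its siRNA libraries were far below its control libraries, opposite to Cxcr4, with a log2 fold change of -3.00 (SE 0.15, limma adjusted p = 4.81e-06). The ratio of Cxcr4 to Cxcl12 was 0.328, 0.416 and 0.248 with control siRNA and 15.9, 13.3 and 8.10 with siTet1/Tet2. The receptor was thus below its ligand in RPKM in every control library and above it in every siRNA library.

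For CX3CR1, the ligand gene Cx3cl1 fell from 3.57 ± 0.288 to 1.82 ± 0.202 RPKM (SD, n = 3 in each group), again opposite to its receptor. Of the ligands of CCR2, Ccl2 fell from 282.0 to 33.3 RPKM, Ccl7 from 450.5 to 19.6 RPKM and Ccl12 from 54.3 to 2.05 RPKM on average, with log2 fold changes of -3.06, -4.49 and -4.24. Each of these ligands was above Ccr2 in every library. Of the ligands of CCR1, Ccl3 fell from 146.8 to 52.0 RPKM and Ccl5 from 24.0 to 0.623 RPKM, and the related chemokine gene Ccl4 fell from 147.6 to 49.1 RPKM. Ccl6 fell from 400.1 to 113.6 RPKM and Ccl9 from 174.2 to 53.2 RPKM, both mouse ligands of CCR1, and Ccl8, another monocyte attractant, from 13.6 to 0.406 RPKM. The eotaxin genes, whose receptor is CCR3, were at low levels and the ligands of CCR7 near the lowest values. CCL5 and CCL7 can also act on CCR3. Ccl24 was at 0.0813 RPKM with control siRNA and 0.139 RPKM with siTet1/Tet2 and did not pass, and Ccl11, Ccl19 and Ccl21a were too low to be tested. Among ligands of CXCR2, Cxcl1 fell from 2.73 to 0.477 RPKM and Cxcl5 from 1.03 to 0.022 RPKM, while Ppbp, a chemokine of platelets, rose from 0.188 ± 0.0452 to 0.864 ± 0.386 RPKM (SD, n = 3 in each group). Ppbp had a log2 fold change of 0.63 (limma adjusted p = 0.00665) and lost its call without the expression minimum, at an adjusted p of 0.120 in limma (range 0.00109 to 0.120). Cxcl2 (0.551 and 0.252 RPKM) did not pass in the unpaired fit (limma adjusted p = 0.0811) and passed with the replicate block (adjusted p = 0.0230). Rarres2, the gene of chemerin, and Mif, which can act through CXCR4, did not pass either, at 2.03 and 1.86 RPKM and at 116.7 and 102.7 RPKM. The limma adjusted p of Mif was 0.0195 without control replicate 3, 0.0351 after rescaling all libraries to a common sum and 0.00147 when scaled to the macrophage list (range 0.00147 to 0.749), and that of Cxcl2 was 0.0131 without siRNA replicate 3 and 0.0397 when scaled to the macrophage list (range 0.0131 to 0.488).

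**Figure D2:**
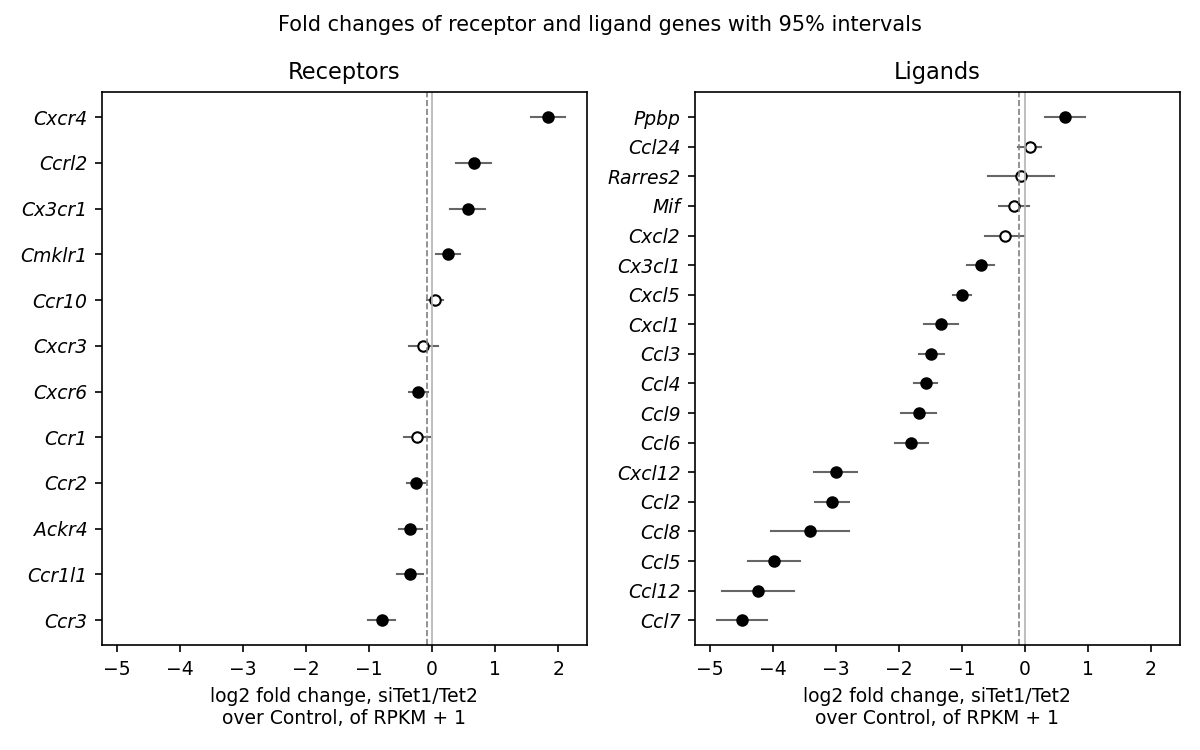
Log2 fold changes of RPKM plus 1 between siTet1/Tet2 and control libraries, with 95% intervals from limma, for the tested receptors (left) and ligands (right) of the lists. Filled points had an adjusted p under 0.05, open points did not, the solid line marks 0 and the dashed line the median of all genes tested, -0.09. Ligands lie mostly below the line and receptors on both sides, with Cxcr4 at 1.84 and Ccr3 at -0.79.

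A signalling list held genes of G proteins, arrestins, receptor kinases, regulators of G protein signalling, lipid kinases, phospholipases, SRC family and JAK kinases, a STAT, the migration machinery and the proteases Adam10 and Adam17, which can shed membrane proteins. Of it 44 genes were tested, of which 9 were higher and 12 were lower with an adjusted p under 0.05 from limma, 21 of 44 beside 44.5% of all genes tested, or 14.7% higher and 29.8% lower. Their median log2 fold change was 0.00 against -0.09 for all genes tested. The balance depended on the scaling, with 12 higher and 7 lower after median ratio scaling and 4 higher and 24 lower when scaled to the macrophage list. On the scale of RPKM plus 1 the largest increases were in Arrb1, Adrbk2 and Prex1. Arrb1, an arrestin that takes up active receptors, rose from 14.4 to 23.7 RPKM. Adrbk2, a receptor kinase, rose from 1.36 to 2.47 RPKM and Prex1, an activator of Rac, from 30.8 to 44.7 RPKM. By the ratio of the group means Adrbk2 (1.81) was above Arrb1 (1.65), and the kinase gene Fgr (1.57) above Prex1 (1.45). The largest decreases were in Gnai1, an inhibitory G protein subunit, from 2.43 to 0.560 RPKM, and in Rgs1 and Rgs18, which switch G proteins off, from 162.8 to 88.1 RPKM and from 10.7 to 5.72 RPKM. The call of Adrbk2 was lost without the expression minimum (limma adjusted p = 0.102, the highest over its alternatives). Gnai2, the most abundant gene of the list, was at 433.3 and 461.6 RPKM and did not pass.

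Ccr1, Ccr3 and Ccr2 lie close together on chromosome 9 of GRCm38, in the annotation GENCODE M21. Ccr1 spans chr9:123962124-123968692 on the minus strand, Ccr3 chr9:124021972-124031689 and Ccr2 chr9:124101950-124113557, both on the plus strand. Ccr1l1 lies between Ccr1 and Ccr3. Ccrl2, at chr9:111054486-111057519, and Cx3cr1, at chr9:119901616-120069879, are on the minus strand of the same chromosome and farther away. Cxcr2 and Cxcr4 are on chromosome 1, at chr1:74153989-74161246 on the plus and chr1:128588199-128592293 on the minus strand, and Ccr7 is on the minus strand of chromosome 11, at chr11:99144196-99155077.

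Cxcr6, Ccr1, Ccr1l1, Ccr3 and Ccr2, which lie in this cluster, had lower means with siTet1/Tet2, under each scaling. Ccr9, on the other side of Fyco1, was not tested and averaged 0.012 RPKM with control siRNA and 0.0367 RPKM with siTet1/Tet2, with overlapping groups and at most 13 estimated reads. Ratios of the siRNA mean to the control mean were 0.413 for Cxcr6, 0.837 for Ccr1, 0.469 for Ccr1l1, 0.484 for Ccr3 and 0.553 for Ccr2, of which Ccr1 did not pass. In the list of 11 neighbours of the members on chromosome 9, in which Cxcr6 and Ccr1l1 stand too, 5 were tested and 3 were lower, with 0 higher, and the median log2 fold change was -0.20. That compares with 29.8% lower among all genes tested. The number of lower neighbours did not hold, at 0 after quantile normalization, 0 without an expression minimum, 1 without control replicate 2 or siRNA replicate 1 or 2, and 1 of 3 tested with a minimum of 1 RPKM. Sacm1l, which encodes a lipid phosphatase, had 41.6 and 36.2 RPKM and lost its call after quantile normalization (limma adjusted p = 0.271) and median ratio scaling (0.161), with no trend in eBayes (0.0624), without the expression minimum (0.147), and without control replicate 2 (0.147), siRNA replicate 1 (0.152) or siRNA replicate 2 (0.133), within 0.00695 to 0.271 over its alternatives. Fyco1 (5.72 and 4.85 RPKM) and Lztfl1 (1.83 and 1.68 RPKM) did not pass. Neighbours of Ccrl2, such as Ltf and Lrrc2, were below the minimum for testing. The higher receptors Ccrl2 and Cx3cr1 lie outside the cluster.

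**Figure D3:**
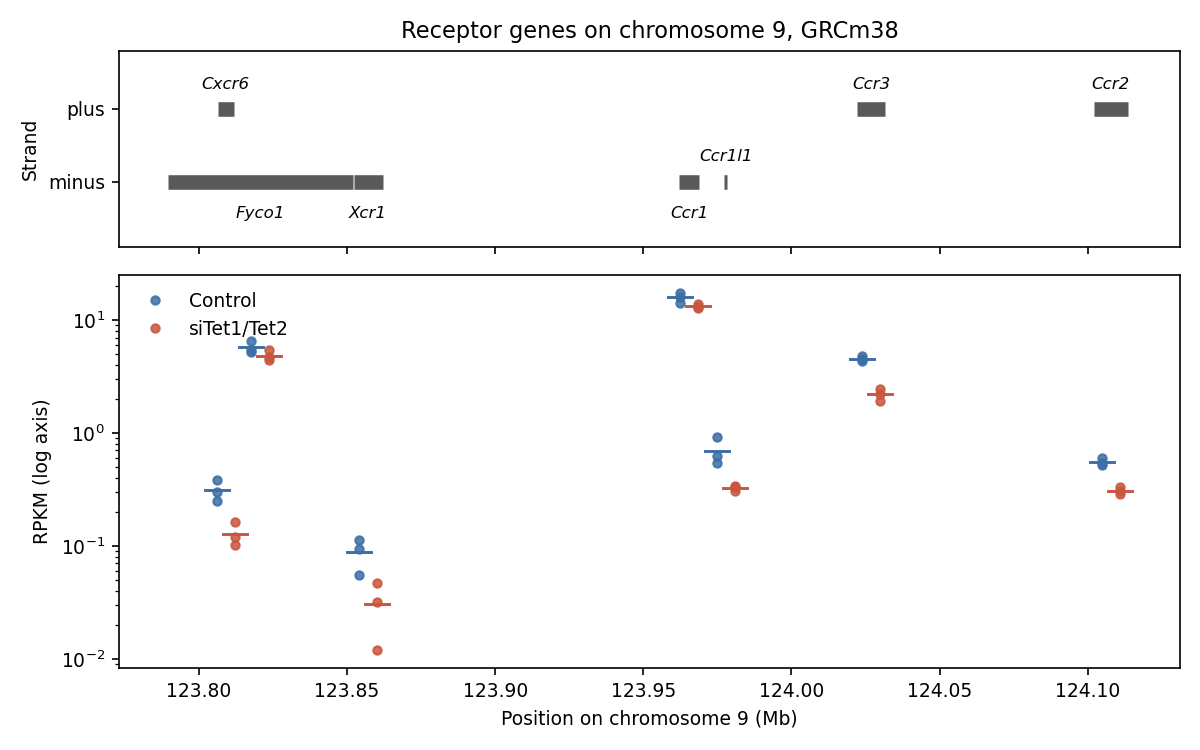
Map to scale of Fyco1, Cxcr6, Xcr1, Ccr1, Ccr1l1, Ccr3 and Ccr2 on chromosome 9 of GRCm38, by strand (top), and their RPKM on a log axis in the control and siTet1/Tet2 libraries near the middle of each gene (bottom), with short lines for the group means. The siRNA means lie below the control means for each gene drawn, which leaves out Ccr9, although Ccr1 and Fyco1 did not pass the test and Xcr1 was not tested. Cxcr6, Ccr1l1 and Ccr2 lost their calls after quantile normalization.

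Promoter sequences of RefSeq on GRCm38.p6 were matched by symbol for 7 of the 8 receptors, all but Ccr7. The 250 bases upstream of the start were searched for CG, the dinucleotide whose methylated cytosine Tet enzymes oxidize, and on both strands for GAGGAA, the core bound by PU.1, a myeloid transcription factor. A CG can share at most a single base with GAGGAA or its complement. CG occurred in 92.1% of all 32851 upstream windows, with a median of 6, and GAGGAA in 23.3%. Cxcr4 had 19 CG, a number reached by 19.7% of all windows. Ccrl2 had 5 to 7 over its 3 annotated starts, Cx3cr1 4, Ccr1, Ccr2 and Cxcr2 1 each, and Ccr3 0. Annotated exons cover all 250 bases of the window of Cx3cr1, 233 of that of Ccr2, and 139 and 140 of those at 2 of the starts of Ccrl2. GAGGAA was found in the windows of Ccr1, Ccr3 and Cxcr2. Spi1, the gene of PU.1, was at 195.6 and 208.9 RPKM. The windows of Cxcr4 and Ccr3, the receptors with the largest increase and decrease, and of Ccrl2, the other higher receptor with a window almost free of annotated exons, are shown with CG and GAGGAA or its complement TTCCTC in capitals. DNA methylation was not measured in these libraries, and a match is a description of the letters only. That of Cxcr4 is chr1:128592300-128592549 (minus strand), that of Ccrl2 chr9:111057519-111057768 (minus strand), upstream of its farthest start, and that of Ccr3 chr9:124021721-124021970 (plus strand).
Cxcr4: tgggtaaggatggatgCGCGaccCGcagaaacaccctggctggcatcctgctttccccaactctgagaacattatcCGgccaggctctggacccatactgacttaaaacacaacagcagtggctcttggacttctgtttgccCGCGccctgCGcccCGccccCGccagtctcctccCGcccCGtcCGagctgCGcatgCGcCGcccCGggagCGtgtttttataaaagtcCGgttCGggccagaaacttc
Ccrl2: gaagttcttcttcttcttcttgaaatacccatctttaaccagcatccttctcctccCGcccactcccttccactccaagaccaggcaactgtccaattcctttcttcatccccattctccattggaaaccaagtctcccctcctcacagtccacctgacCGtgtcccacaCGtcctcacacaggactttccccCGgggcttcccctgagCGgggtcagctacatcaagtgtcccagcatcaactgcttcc
Ccr3: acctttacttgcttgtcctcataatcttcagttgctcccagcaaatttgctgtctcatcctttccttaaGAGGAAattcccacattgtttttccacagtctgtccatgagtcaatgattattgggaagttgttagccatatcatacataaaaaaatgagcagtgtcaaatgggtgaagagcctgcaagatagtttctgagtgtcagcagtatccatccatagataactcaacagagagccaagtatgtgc

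The labelled cell type was checked against marker genes. In the study, flow cytometry of BMMSCs taken from knockout and control mice found no CD45. Those were other samples than the siRNA-treated cells of these libraries, where Ptprc, the gene of CD45, was at 47.4, 54.4 and 56.0 RPKM with control siRNA and at 52.6, 47.2 and 59.3 RPKM with siTet1/Tet2. It was abundant in all libraries and its groups overlapped. Stromal markers were present as well, so the libraries hold RNA of both stromal and hematopoietic genes, and which cells carried the receptors was not measured. In bulk RNA, fewer cells of a type and less RNA per cell cannot be told apart. Relative to Ptprc within a library, Cxcr4 was at 0.195 to 0.283 with control siRNA and 0.671 to 1.07 with siTet1/Tet2, and Ccr3 at 0.0806 to 0.0908 and 0.0367 to 0.0470, with the groups apart, whereas the ratio of Ccr1 to Ptprc overlapped between the groups.

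Of 9 surface markers of BMMSCs, hematopoietic ones included, 8 were tested, with 4 lower and 0 higher by an adjusted p under 0.05 from limma and a median log2 fold change of -0.40, against -0.09 for all genes tested. The counts of this list and of the cell type lists below stand beside 14.7% higher and 29.8% lower among all genes tested. Their sum was 283.0, 267.0 and 266.0 RPKM with control siRNA and 83.9, 91.3 and 107.1 RPKM with siTet1/Tet2. The most abundant, Ly6a, the gene of Sca-1, fell from 152.2 to 16.4 RPKM, Pdgfra from 9.92 to 0.944 RPKM and Pdgfrb from 30.2 to 5.19 RPKM, while Thy1, the gene of CD90, was under the minimum for testing. Of 12 stromal genes, 9 were tested and all 9 were lower, with a median of -2.48. They summed to 1021, 957.3 and 1483 RPKM with control siRNA and to 119.5, 164.6 and 257.7 RPKM with siTet1/Tet2. The most abundant was Col1a1, a fibrillar collagen, which fell from 488.4 to 72.1 RPKM. On the scale of RPKM plus 1 the largest decreases with it were in Postn and Col3a1. By the ratio of the group means Pdgfra fell most, to 0.0952 of its control mean. Stromal cells are a known source of CXCL12, which fell along with this list, and the part of the stromal list in the receptor and ligand values was not tested.

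Of 17 macrophage genes, all tested, 8 were higher and 3 were lower, beside 14.7% and 29.8% of all genes tested, and their median log2 fold change was 0.20. With 1 library left out 6 to 8 were higher and 1 to 3 lower. The balance depended on the scaling, with 9 higher and 1 lower after median ratio scaling, 9 and 2 after quantile normalization and 7 and 3 after rescaling to a common sum. Scaling to this list itself, which centres it by construction, gave 5 higher and 5 lower. Their sum was 14742, 13902 and 11437 RPKM with control siRNA and 23381, 22192 and 20001 RPKM with siTet1/Tet2. The most abundant was Lyz2, lysozyme, which rose from 4439 to 11321 RPKM, a rise that was not called after quantile normalization (limma adjusted p = 0.455, range 4.57e-05 to 0.455). Tyrobp and Mertk rose as well, from 465.6 to 1164 RPKM and from 50.7 to 102.3 RPKM, while the Fc receptor gene Fcgr1 fell from 109.1 to 27.8 RPKM. Mrc1 and Fcer1g were lower by small amounts, at 140.7 against 170.2 RPKM and 512.9 against 618.3 RPKM, and their calls were fragile. The limma adjusted p of Mrc1 was 0.00402 to 0.208 over its alternatives and 0.0506 to 0.119 without control replicate 2 or 3 or siRNA replicate 1 or 2. That of Fcer1g was 8.22e-05 to 0.177, and 0.0977 to 0.131 without control replicate 1 or 2 or any 1 siRNA replicate. The macrophage genes thus moved in both directions, as the receptors did, and their part in the receptors' values was not tested.

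Of 9 monocyte genes 8 were tested, with 4 higher and 4 lower, beside 14.7% and 29.8% of all genes tested, and a median of -0.47. They summed to 495.0, 494.7 and 675.7 RPKM with control siRNA and 103.3, 145.6 and 191.2 RPKM with siTet1/Tet2, most of it Fn1, which stromal cells also make and which fell from 492.0 to 95.2 RPKM. Monocytes carry CCR2 and CX3CR1. Plac8 fell from 31.1 to 2.10 RPKM and Vcan from 18.3 to 2.17 RPKM, while F13a1 rose from 6.40 to 35.9 RPKM, Treml4 from 1.29 to 5.70 RPKM and Spn from 0.395 to 1.31 RPKM. The part of these genes in the values of Ccr2 and Cx3cr1 was not tested.

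Ccr3 is known from eosinophils and basophils, whose markers were low. Of 5 eosinophil genes, Epx, Prg2 and Ear6 were at the lowest listed value in all libraries, and the list summed to 0.452, 0.431 and 0.461 RPKM with control siRNA and 0.316, 0.290 and 0.343 RPKM with siTet1/Tet2, nearly all of it Siglecf. Siglecf was the only one tested and did not pass, but was called lower when scaled to the macrophage list (limma adjusted p = 0.0483). Its log2 fold change was -0.13 in the unpaired fit and 0.02 after quantile normalization. Of 7 mast cell and basophil genes, Fcer1a and Ms4a2 were at the lowest listed value in all libraries, and 2 were tested, with 1 lower and a median of -0.48. The sum of that list was 4.82, 4.64 and 4.001 RPKM with control siRNA and 1.59, 2.21 and 1.76 RPKM with siTet1/Tet2. It was nearly all Mcpt8, a basophil protease, which fell from 4.17 to 1.68 RPKM. The fall of Mcpt8 stood beside that of Ccr3, and its part in that value was not tested.

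Cxcr2 is the receptor of neutrophils, of whose 12 markers 4 were tested, with 2 higher and 1 lower and a median of 0.43. Without control replicate 1 the median was 0.116, with 5 tested. S100a9 and Retnlg were at the lowest listed value in all libraries. The list summed to 10.9, 11.1 and 10.9 RPKM with control siRNA and to 32.5, 29.0 and 23.4 RPKM with siTet1/Tet2. The most abundant, Csf3r, rose from 6.92 to 15.0 RPKM and S100a8 from 1.95 to 12.7 RPKM, while Camp fell from 1.45 to 0.058 RPKM. Ccr7 is known from dendritic cells and T cells. Of 8 dendritic cell genes 3 were tested, with 1 higher and 1 lower and a median of -0.19, and their sum was 77.7, 72.3 and 82.4 RPKM with control siRNA and 18.7, 23.7 and 28.5 RPKM with siTet1/Tet2. Most of it was Fscn1, a gene that stromal cells express too, which fell from 69.3 to 13.7 RPKM, and Itgax rose from 7.51 to 9.57 RPKM, a call lost without control replicate 1 or 3 or any 1 siRNA replicate (limma adjusted p = 0.0507 to 0.0955, range 0.00401 to 0.464). The dendritic cell counts were 0 higher and 2 lower after rescaling to a common sum and when scaled to the macrophage list. There Itgax lost its call (limma adjusted p = 0.105 and 0.464) and Zbtb46 was called lower (0.0486 and 0.0282). In the unpaired fit Zbtb46 did not pass (limma adjusted p = 0.0508). Of 8 T cell genes 3 were tested and 2 were higher, with a median of 0.76 and sums of 34.3, 40.0 and 39.2 RPKM with control siRNA and 72.2, 66.5 and 66.1 RPKM with siTet1/Tet2. Nearly all was Il7r, which rose from 35.0 to 60.0 RPKM, and Cd4 rose from 2.56 to 8.06 RPKM, but Cd3g was at the lowest listed value in all libraries and Cd3e and Cd3d were near it.

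The remaining lists were of cells less often linked with these receptors. Of 5 B cell genes 2 were tested, with Cd79b higher and Ebf1, which fell from 5.34 to 1.28 RPKM and was the most abundant, lower, and a median of -0.49. The call of Cd79b was lost without control replicate 2 or siRNA replicate 2 or 3 (limma adjusted p = 0.0590 to 0.0743, range 0.00236 to 0.222). The B cell list summed to 5.77, 5.13 and 6.94 RPKM with control siRNA and 1.84, 2.50 and 3.02 RPKM with siTet1/Tet2. Of 8 osteoclast genes 6 were tested, with 3 higher and 0 lower, a median of 0.28 and sums of 84.2, 84.9 and 79.2 RPKM with control siRNA and 185.5, 167.4 and 175.8 RPKM with siTet1/Tet2. Atp6v0d2, the most abundant, rose from 57.6 to 139.4 RPKM, Acp5 from 3.71 to 10.4 RPKM and Ctsk from 10.6 to 14.3 RPKM, a call lost when scaled to the macrophage list and without the expression minimum (limma adjusted p = 0.0807), whereas Calcr was near the lowest value. Ocstamp went the other way, from 0.178 to 0.0597 RPKM, and did not pass (limma adjusted p = 0.0548), but was called lower at pseudocounts of 0.1 and 0.01, without the expression minimum, after rescaling to a common sum and when scaled to the macrophage list (range 0.0279 to 0.233). Mmp9 (0.535 and 0.374 RPKM) did not pass and was called lower in the macrophage scaling. The osteoclast counts were 5 higher and 0 lower of 7 tested without control replicate 3, with Nfatc1 among them, and 2 higher and 2 lower, with a median of 0.08, when scaled to the macrophage list. The osteoclast median was 0.186 without control replicate 1, 0.165 without control replicate 2 and 0.436 after quantile normalization. Of 6 endothelial genes 5 were tested, with 2 higher and 2 lower, a median of -0.22 and sums of 4.25, 4.44 and 5.04 RPKM with control siRNA and 7.71, 7.33 and 7.50 RPKM with siTet1/Tet2. The endothelial median was -0.139 without control replicate 3, -0.064 after quantile normalization and -0.412 after rescaling to a common sum. Vwf, the most abundant, rose from 1.93 to 6.10 RPKM and Kdr fell from 1.58 to 0.604 RPKM. Pecam1 was higher and Emcn lower at under 1 RPKM. Both calls were fragile, with a limma adjusted p of 0.0630 to 0.0826 for Pecam1 without control replicate 2 or 3 or siRNA replicate 1 or 3 (range 0.00322 to 0.166), and of 0.0621 to 0.0757 for Emcn without control replicate 2 or siRNA replicate 1 or 2 (range 0.00921 to 0.149). The part of these lists in the receptors' values was not tested.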

How the data were processed

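RNA-seq libraries of total RNA from 3 control and 3 Tet1/Tet2 siRNA-treated BMMSC samples were analysed. The authors trimmed adaptors, mapped paired-end reads to GRCm38, estimated abundance with DNASTAR Lasergene v15.0 and deposited linear RPKM, a unit named FPKM in their methods. Annotation release, strand use and multi-mapping handling are not given in the sources used here. A deposited p-value column, made by the authors, was left unused.

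The highest-mean entry was kept for each of 37 symbols listed more than once. Genes averaging 0.1 RPKM or more were tested as log2 of RPKM plus 1, in a two-sided test by limma 3.58.1 (R 4.3.3, functions lmFit and trended eBayes), with Benjamini-Hochberg adjustment. An exact permutation test of 3 against 3 libraries has a smallest p of 0.1. Fold changes on this scale understate those of genes with low RPKM. The procedure was tested on simulated data, the outcome of which is not given here. Summaries were made in Python 3.11.15 with numpy 2.4.6 and pandas 2.3.3.

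Depth was taken as the read total that brought the low RPKM of genes with 1 GENCODE M21 transcript nearest to whole reads. At that depth 55.3% to 58.4% of them were within 0.1 of a whole read, so read numbers, taken with the longest annotated transcript, are estimates and no count test was run. Both groups carry the same replicate numbers in the labels. Across genes, same-numbered libraries had correlated deviations from their group means, at 0.149 (replicate 1), 0.117 (replicate 2) and 0.462 (replicate 3). Each exceeds 0.1, and a further fit paired the libraries by number. This pairing rests on the data alone, and the crossed pairs of replicates 1 and 2 correlated more, at 0.332 (control 1 with siRNA 2) and 0.205 (control 2 with siRNA 1).

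The receptors and the lists of other receptors, ligands, signalling genes, neighbours on chromosome 9 and cell type markers were chosen with earlier results of these data known. The named genes were the receptors, Tet1, Tet2, Tet3, the tested genes of the receptor, ligand and neighbour lists, at most the 3 largest increases and 3 largest decreases with an adjusted p under 0.05 of each other list, its most abundant gene, and the 3 genes most like each receptor averaging 1 RPKM or more. Largest was taken by the log2 fold change of RPKM plus 1. Some genes first placed on the lists are not reported here and were taken out of their counts, medians and sums. Other genes named, such as markers at the lowest listed value, were chosen after their values were seen. Alternatives were pseudocounts of 0.1 and 0.01, no expression minimum, a minimum of 1 RPKM, 4 other scalings of the libraries, eBayes with no trend, a replicate block, summed duplicate symbols, each library left out, and the ratio of the group means as the fold.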

Additional observations from a re-analysis of the deposited data

How the results depend on the processing

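None of the 6 receptors tested changed direction under any alternative. The number of receptors with an adjusted p under 0.05, 5 in the unpaired fit, was 3 with a minimum of 1 RPKM, which removed Ccr2 and Cx3cr1 from the test, and 6 with the replicate block, which added Ccr1 and changed no other call among the receptors. It was also 6, with Ccr1 added, after rescaling to a common sum and when scaled to the macrophage list, 4 without an expression minimum, where Cx3cr1 lost its call, and 4 after quantile normalization, where Ccr2 did. It was 5 to 6 with 1 library left out. The number altered, 1, was 3 at a pseudocount of 0.1, 3 at 0.01 and 3 with the ratio of the group means, where Ccr3 and Cx3cr1 joined Cxcr4, since a smaller pseudocount gives low genes larger folds by construction. Of all genes tested, 5905 passed, 3744 without an expression minimum. Other receptors numbered 4, and 0 without a minimum, 1 with a minimum of 1 RPKM, 2 after quantile normalization and 2 to 3 with 1 library left out, 2 of them without control replicate 2, siRNA replicate 2 or siRNA replicate 3. Signalling genes numbered 21, and 12 without a minimum and 12 to 21 with 1 library left out, 12 without siRNA replicate 1 and 13 without siRNA replicate 2. Where no reason is named the cause was not tested. Among genes with an adjusted p under 0.05, 66.9% were lower, 74.2% after rescaling all libraries to a common sum, 55.7% after median ratio scaling, 42.1% after quantile normalization and 86.8% when scaled to the macrophage list. The all-genes median of the log2 fold change moved from -0.09 to 0.06 with quantile normalization and to -0.25 with the macrophage scaling. Relative to that median, Cxcr4 stayed between 1.88 and 1.98, Ccrl2 between 0.75 and 0.87, Cx3cr1 between 0.63 and 0.95, Ccr3 between -0.82 and -0.65, Ccr2 between -0.30 and -0.06 and Ccr1 between -0.19 and -0.13 over the scalings. After rescaling to a common sum the log2 fold change was 0.79 for Cx3cr1 and -0.45 for Ccr2, against 0.57 and -0.25 in the unpaired fit. Rescaling also changes the weight of the pseudocount of 1 at low levels, so these values do not show the balance between libraries alone. Low receptors such as Ccr2 rest on about 62 to 117 estimated reads.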
